A study of Mus musculus with 6 samples.

Results

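The Hox cluster genes encode the homeodomain transcription factors that pattern the body axis. They were taken here as every gene whose array row carried 1 symbol made of Hoxa, Hoxb, Hoxc or Hoxd and a number, and 36 such genes were found among the 22180 genes tested. Hoxa11 and Hoxd4 appeared only on rows shared with another symbol, which are described apart. The 36 genes were 9 of the Hoxa cluster, 10 of Hoxb, 9 of Hoxc and 8 of Hoxd.

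The study compared kidneys, taken at 4 weeks of age from otherwise untreated mice, on 6 arrays. Pals1 (Mpp5) is a scaffold protein of the Crumbs polarity complex, and the series title concerns a reduced dose of its gene in nephrons, with protein in the urine and cysts. The labels name a conditional Pals1/Mpp5 knockout mouse on a background written C56Bl/6 and purchased Six2-Cre mice, and give a mixed background for both groups. The 3 control arrays are labelled Cre-negative and the other 3 Cre-positive. The labels do not say how many floxed copies the mice of either group carried, nor whether each array came from a mouse of its own. Each p-value is therefore a statement on the spread among these 6 samples, which may be technical. Six2-Cre is active in the progenitors of the nephron epithelium, which do not give rise to the collecting duct, the stroma or the urothelium. Values are log2 levels after RMA. That normalization corrects background, gives the probe values of all arrays the same distribution and then summarises the probes of each row.

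Hox genes lie in 4 clusters, in which neighbours on the chromosome are switched on in order along the body axis, and genes at the same place in different clusters, called paralogues, share a number. The proteins bind DNA together with TALE cofactors of the Pbx, Meis and Pknox families. In the developing kidney the paralogues numbered 11 act with Eya1 and Pax2 in the metanephric mesenchyme to switch on Six2 and Gdnf, those numbered 10 are needed in the stroma, and Hoxb7 marks the ureteric bud, from which the collecting duct grows.

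In the Cre-positive kidneys 6 of the 10 Hoxb genes rose, namely Hoxb3, Hoxb4, Hoxb5, Hoxb6, Hoxb7 and Hoxb9, by 1.47- to 2.30-fold. In the Hoxd cluster Hoxd10 and Hoxd11 rose, in the Hoxc cluster Hoxc11 rose, and 0 of 9 Hoxa genes passed the test by limma (2 at an unadjusted p under 0.05). That made 9 of 36 genes (25.0%) higher and 0 lower by limma at an adjusted p under 0.05. Over all genes tested 21.8% passed in either direction, 10.7% higher and 11.1% lower, so the share of Hox genes called in either direction lay near the background and the share called higher above it. The median log2 difference was 0.16 over the 36 Hox genes and -0.01 over all genes. Without adjustment 14 of the 36 passed 0.05, where 33.4% of all genes did.

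Some facts of the arrays stand beside every difference below. Mpp5 itself was at 8.71 ± 0.06 (SD, n = 3) in the Cre-negative and 8.10 ± 0.09 (SD, n = 3) in the Cre-positive arrays, a log2 difference of -0.61 (limma adjusted p = 0.00232), in the direction of the labels. Xist and the Y-linked genes read as female in 2 of the 3 Cre-negative arrays, replicates 1 and 2, and as male in the other 4 arrays, so sex moves with group. Since both female arrays are controls, a fit with sex as a second term sets the 3 Cre-positive arrays against Cre-negative replicate 3 alone. Its differences are those of the male arrays, with the spread taken from the other 5 arrays, and counts that held in it are given below. Transcripts of the adrenal gland stood out in Cre-negative replicate 2 (Cyp11b1 at 11.10 against 3.85 to 4.24 elsewhere) and those of skeletal muscle in Cre-positive replicate 2 (Myh4 at 7.72 against 3.93 to 4.86). Of 10 proximal tubule markers measured, 0 lay at the level of olfactory and vomeronasal receptor genes on every array, as the kidney label requires. Arrays correlated at 0.990 to 0.995 within groups and 0.973 to 0.975 between them.

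**Figure D1:**
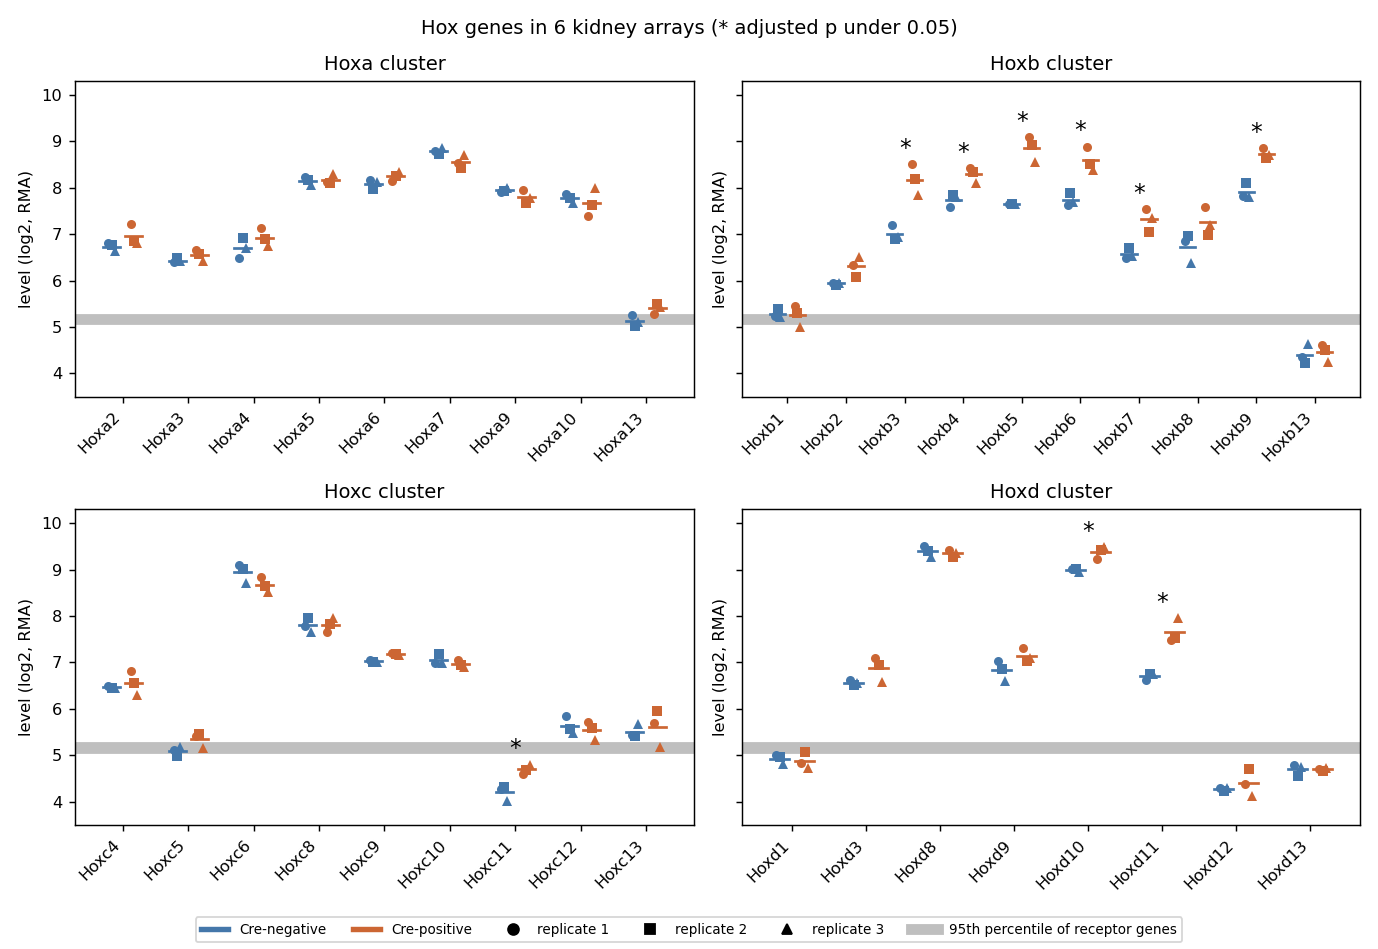
Log2 RMA level (vertical axis) of the 36 Hox genes in each of the 6 arrays, in 1 panel per cluster and in order of paralogue number. Blue points are Cre-negative and orange points Cre-positive replicates, short lines are group means, the grey band spans the 95th percentile of receptor genes over the arrays (5.06 to 5.25), and stars mark the 9 genes at an adjusted p under 0.05, 6 of them in the Hoxb panel.

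Most Hox genes were measurable in the kidney at this age. As a yardstick for dim rows, the 1373 olfactory and vomeronasal receptor genes, which kidney tissue largely keeps silent, had medians of 3.09 to 3.16 and a 95th percentile of 5.06 to 5.25 on the 6 arrays. Of the 36 Hox genes 28 lay above that percentile on all 6 arrays. The 8 that did not were Hoxa13, Hoxb1, Hoxb13, Hoxc5, Hoxc11, Hoxd1, Hoxd12 and Hoxd13, which apart from Hoxc5 carry the numbers 1 or 11 to 13. Hoxb1, Hoxd1 and 3 of the 4 paralogues numbered 13 were among them, whereas every measured paralogue numbered 2, 3, 4, 6, 7, 8, 9 and 10 lay above. RMA compresses differences of such dim rows, and levels of different genes are not ranked, because their probes differ.

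The Hoxb genes are taken from the head end of the cluster to its tail end. Hoxb3, which patterns the hindbrain and pharyngeal arches, read 7.20, 6.89 and 6.95 in the Cre-negative arrays, in the order of replicates 1, 2 and 3 kept throughout, and 8.51, 8.18 and 7.84 in the Cre-positive arrays. All Cre-positive arrays lay above all Cre-negative arrays, and the Cre-positive arrays spread more widely. The difference was 1.16 ± 0.17 (SE), or 2.24-fold with a 95% interval of 1.70 to 2.94 (limma adjusted p = 0.00264), while a row that Hoxb3 shares with Hoxb2, described further on, fell. Hoxb4, known for its action on blood-forming stem cells, was at 7.58, 7.84 and 7.79 against 8.43, 8.35 and 8.10. The groups were apart by a narrow margin, and the difference of 0.56 ± 0.12 was 1.47-fold (limma adjusted p = 0.0125). Without Cre-negative replicate 1 it no longer passed (adjusted p = 0.0509).

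With all 6 arrays the rise was widest for Hoxb5, a regulator of neural crest and gut innervation, but that of Hoxb3 was close. Against Cre-negative replicate 3 alone Hoxb3 rose by 1.23 and Hoxb5 by 1.21. The Cre-negative arrays of Hoxb5 stood at 7.65 in each of the 3 replicates and its Cre-positive arrays at 9.08, 8.92 and 8.55. The Cre-negative arrays were almost identical, and each Cre-positive array was far above them. The difference was 1.20 ± 0.14, or 2.30-fold with a 95% interval of 1.85 to 2.86 (limma adjusted p = 0.000867). A second row of the table also named Hoxb5 alone, and it read 6.89, 6.79 and 6.62 against 6.63, 6.71 and 6.30. There the groups overlapped and the difference was -0.22 ± 0.14 (limma adjusted p = 0.380 over all 41345 rows). With the mean of both rows Hoxb5 rose by 0.49 on the log2 scale (limma adjusted p = 0.0284), so the size of its rise depends on the row. Whether both rows measure the same transcript was not determined, so that mean may mix different transcripts.

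Hoxb6 and Hoxb7 are neighbours in the middle of the cluster. Hoxb6 was at 7.62, 7.90 and 7.69 against 8.89, 8.52 and 8.38, apart in all arrays, and rose by 0.86 ± 0.14 or 1.81-fold (limma adjusted p = 0.00492). Hoxb7, the ureteric bud and collecting duct marker, was at 6.49, 6.71 and 6.54 against 7.55, 7.05 and 7.36. The lowest Cre-positive array of Hoxb7 was replicate 2, the one with muscle transcripts, and it still lay above every Cre-negative array. Hoxb7 rose by 0.74 ± 0.14 or 1.67-fold (limma adjusted p = 0.00681).

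Hoxb9, which patterns the thoracic skeleton and the mammary gland with its paralogues, was at 7.82, 8.09 and 7.80 in the Cre-negative arrays and at 8.85, 8.64 and 8.71 in the Cre-positive ones. Its groups were well apart. The difference was 0.83 ± 0.11, or 1.78-fold (limma adjusted p = 0.00169). Of the 9 called genes, Hoxb5 and Hoxb9 stayed past the threshold in each of the 19 alternative analyses run, and the other 7 lost the call in at least 1. In the fit of all rows Hoxb5 held by its row that rose, and its second row did not pass.

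The other 4 Hoxb genes did not pass. Hoxb2, expressed in the hindbrain and its neural crest, was at 5.95, 5.91 and 5.95 against 6.35, 6.07 and 6.52. Those groups did not overlap, and the difference was 0.37 ± 0.12 (limma adjusted p = 0.0633). Hoxb8, known from microglia and grooming behaviour in mice, was at 6.85, 6.96 and 6.37 against 7.60, 6.99 and 7.21. Its groups were apart by a margin smaller than either group's spread, and the difference was 0.53 ± 0.20 (limma adjusted p = 0.0955). Hoxb1, a hindbrain gene, and Hoxb13, a gene of the prostate and tail, had differences of -0.03 ± 0.13 and 0.05 ± 0.14 at levels near those of the receptor genes. In the Hoxb cluster 8 of 10 genes had groups that did not overlap, all higher, where 18.6% of all genes were apart and higher.

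In the Hoxd cluster the 2 genes that rose are neighbours. Hoxd10, of limb and motor neuron patterning, was at 9.02, 9.02 and 8.94 against 9.22, 9.43 and 9.48. The groups were apart, and the difference of 0.38 ± 0.10 was 1.30-fold (limma adjusted p = 0.0251). That call was the least stable of the 9: it held in 1 of the 6 fits that left out an array, and was lost in the other 5 (adjusted p = 0.0554 to 0.0848). Hoxd11, required for kidney growth together with its paralogues, was at 6.63, 6.75 and 6.76 against 7.49, 7.53 and 7.95. Every Cre-positive array was above every Cre-negative array, with replicate 3 the highest, and Hoxd11 rose by 0.95 ± 0.13 or 1.93-fold (limma adjusted p = 0.00213).

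The other 6 Hoxd genes did not pass and their groups overlapped. Hoxd8 was at 9.51, 9.39 and 9.28 against 9.42, 9.27 and 9.35. That is a difference of -0.05 ± 0.09, smaller than the spread within the Cre-negative group. Hoxd3 and Hoxd9 had differences of 0.31 ± 0.13 each (limma adjusted p = 0.150 and 0.149). Hoxd3 passed only when Cre-positive replicate 3 was left out (adjusted p = 0.0171). Hoxd1, Hoxd12 and Hoxd13, genes of the hindbrain end and of the digit end of the cluster, had differences of -0.05, 0.13 and 0.00.

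In the Hoxc cluster Hoxc11, a paralogue of Hoxd11, was at 4.28, 4.31 and 4.00 against 4.59, 4.69 and 4.80. The groups were apart and the difference was 0.50 ± 0.11, or 1.41-fold (limma adjusted p = 0.0160), but all 6 arrays lay under the 95th percentile of the receptor genes. Without Cre-positive replicate 2 the adjusted p was 0.0509. Hoxc6 was at 9.10, 9.01 and 8.72 against 8.84, 8.65 and 8.53. The groups overlapped, and the difference was -0.27 ± 0.13 (limma adjusted p = 0.195). Against Cre-negative replicate 3 alone, the lowest control, it was -0.04.

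Hoxc9, of thoracic motor neurons, had groups that did not overlap at 7.04, 7.00 and 7.02 against 7.20, 7.18 and 7.17. Its difference was small, 0.16 ± 0.08, and did not pass (limma adjusted p = 0.186). The differences of Hoxc4, Hoxc5, Hoxc8, Hoxc10, Hoxc12 and Hoxc13 were 0.09, 0.25, 0.01, -0.09, -0.09 and 0.10, with overlapping groups in each. Hoxc5 passed only without Cre-positive replicate 3 (limma adjusted p = 0.0442).

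The Hoxa cluster gave 0 calls among 9 genes, with a median difference of 0.12 and a range of -0.24 to 0.27. Hoxa7 was at 8.79, 8.73 and 8.86 against 8.54, 8.42 and 8.71. It was the 1 Hox gene with all Cre-positive arrays below all Cre-negative arrays, and its difference of -0.24 ± 0.10 did not pass (limma adjusted p = 0.138). Hoxa13, a gene of the limb tip and the urogenital tract, was at 5.26, 5.02 and 5.11 against 5.28, 5.49 and 5.43. It was apart by a narrow margin near the receptor level, with a difference of 0.27 ± 0.10 (limma adjusted p = 0.0964). The differences of Hoxa2, Hoxa3, Hoxa4, Hoxa5, Hoxa6, Hoxa9 and Hoxa10 were 0.23, 0.12, 0.22, 0.02, 0.16, -0.15 and -0.10. Among these Hoxa5, a regulator of lung development, had a 95% interval of -0.20 to 0.24, against 0.89 to 1.52 for Hoxb5.

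Over the 36 genes 13 were apart and higher and 1 was apart and lower, together 38.9%, where 38.5% of all genes were apart, 18.6% higher and 19.9% lower. The log2 difference was above 0 for 27 of the 36.

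**Figure D2:**
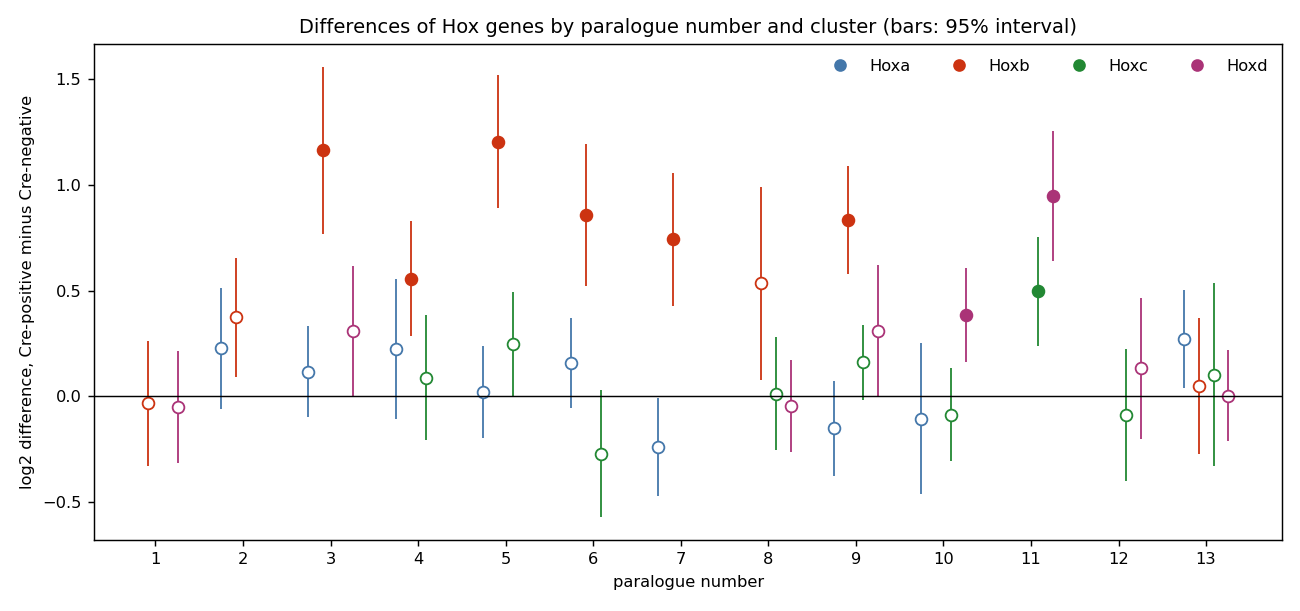
Log2 difference, Cre-positive minus Cre-negative, of each Hox gene (vertical axis) by paralogue number (horizontal axis), with the cluster in colour and bars for the 95% interval from limma. Filled points are the 9 genes past the threshold, and Hoxb genes numbered 3 to 9 lie above their paralogues at each number.

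Paralogues share a number and much of their sequence, so each Hoxb gene was set against its paralogues on the same array. The Hoxb cluster was chosen for this with its rise known, so the pairs restate that rise beside their paralogues and carry no test. In 17 of 19 such pairs the log2 ratio of the Hoxb gene over its paralogue was higher in the Cre-positive group, and in 14, all those of Hoxb3 to Hoxb9, the 6 arrays did not overlap between groups. The ratio of Hoxb5 over Hoxa5 moved by 1.18 ± 0.22 (SE), with Hoxb5 read from its row that rose. That of Hoxb3 over Hoxa3 moved by 1.05 ± 0.17, that of Hoxb6 over Hoxc6 by 1.13 ± 0.15 and that of Hoxb9 over Hoxa9 by 0.98 ± 0.11. The pairs of Hoxb1, Hoxb2 and Hoxb13 overlapped between the groups.

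The promoters of the members that rose are printed where the RefSeq table (GRCm38.p6) held them, which was for 3 of the 9, as the 250 bases before the transcript start. The capitals mark the matches to the motifs searched on both strands, which were TAATTA (a homeodomain core), TGATTNAT (a site for HOX with PBX), TGACAG (a site for Meis and Tgif), AGGTCA (a nuclear receptor half-site, the kind that retinoic acid receptors bind), CCAAT and TATAAA.
Hoxb4 at chr11:96318017-96318266, plus strand: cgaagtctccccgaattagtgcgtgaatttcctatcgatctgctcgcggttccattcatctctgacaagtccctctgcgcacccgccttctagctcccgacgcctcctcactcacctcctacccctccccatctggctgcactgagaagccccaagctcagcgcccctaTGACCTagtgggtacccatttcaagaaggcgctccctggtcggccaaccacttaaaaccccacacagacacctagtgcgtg
Hoxd10 at chr2:74691641-74691890, plus strand: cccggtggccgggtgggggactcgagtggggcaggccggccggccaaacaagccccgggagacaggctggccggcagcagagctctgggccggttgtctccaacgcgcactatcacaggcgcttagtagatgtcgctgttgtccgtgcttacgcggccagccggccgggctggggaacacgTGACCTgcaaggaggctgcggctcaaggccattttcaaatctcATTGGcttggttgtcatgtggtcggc
Hoxd11 at chr2:74682073-74682322, plus strand: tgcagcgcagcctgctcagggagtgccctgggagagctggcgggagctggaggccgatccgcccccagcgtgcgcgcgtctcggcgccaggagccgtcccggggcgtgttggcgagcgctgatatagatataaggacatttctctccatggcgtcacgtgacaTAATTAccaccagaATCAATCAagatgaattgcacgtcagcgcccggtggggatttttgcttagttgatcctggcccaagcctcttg

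Hoxb4 and Hoxd10 each hold 1 AGGTCA on the minus strand, read as TGACCT above, and Hoxd10 also holds CCAAT on the minus strand. AGGTCA stood in 5 of 22 promoters of 20 Hox genes and in 14.0% of all 32851 promoters. Hoxd11 holds TAATTA and, on the minus strand, TGATTNAT. Its other start, before which chr2:74679308-74679557 lies, holds TAATTA too. These were the only 2 Hox promoters of the 22 with TAATTA, which 4.84% of all promoters hold, and TGATTNAT stood in 2 of 22 and in 2.82% of all. TGACAG stood in 2 of the 22 (15.9% of all), CCAAT in 13 (33.8% of all) and TATAAA in 3 (12.4% of all). The Hox promoters held a median of 12.5 CpG dinucleotides, from 2 to 35, against 6 in all promoters. A match is a description of letters, not a binding site.

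Rows that name a Hox gene together with a second gene were tested in a fit of all 41345 rows, of which 12.1% passed. A row for Hoxa11 and its antisense RNA Hoxa11os was at 5.82, 5.74 and 5.73 against 6.28, 6.30 and 6.29. The groups were apart with almost no spread among the Cre-positive arrays, and the row rose by 0.53 ± 0.08 (limma adjusted p = 0.00882). The second row of the same pair had a difference of 0.56 ± 0.18 (adjusted p = 0.0959).

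A row for Hoxb3 and Hoxb2 together went the other way from Hoxb3's own row. It was at 7.58, 7.40 and 7.68 against 7.12, 6.62 and 6.78, apart and lower, and fell by 0.71 ± 0.15 (limma adjusted p = 0.0249). A row for Mira and Hoxa7 fell by 0.51 ± 0.12 (limma adjusted p = 0.0326), the same sign as Hoxa7's own row, and that for Hoxd4 and Hoxd3 had a difference of 0.18 ± 0.18. Which transcripts such shared rows measure was not determined, because the sources used here do not give the strand of a row.

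The clusters also carry microRNA genes, whose mature forms are printed to show how the genes of different clusters are related. Capitals mark the seed, bases 2 to 8, and the sequences are from RefSeq.
mmu-miR-10a-5p: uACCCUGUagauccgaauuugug
mmu-miR-10b-5p: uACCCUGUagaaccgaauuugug
mmu-miR-196a-5p: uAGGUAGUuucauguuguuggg

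miR-10a, of the Hoxb cluster, and miR-10b, of the Hoxd cluster, share a seed and differ by U12A, counted from the 5′ end of miR-10a. The row for Mir10a and Hoxb4 was at 3.05, 3.62 and 4.48 against 6.60, 4.71 and 5.19, apart but widely spread, with a difference of 1.78 ± 0.53 (limma adjusted p = 0.0788). All its Cre-negative arrays and 1 Cre-positive array lay under the receptor percentile, so that difference is taken against a dim row. The row of Mir10b had 0.58 ± 0.33, and those of Mir196a-1 (Hoxb cluster) and Mir196a-2 (Hoxc cluster), which encode the same mature sequence, had -0.14 and 0.10. The label was made from total RNA by a whole-transcript protocol, so such rows do not measure the mature microRNA. Of 7 non-coding genes of the clusters with a row of their own, Hotair and Mir615 among them, 0 passed limma's test at an adjusted p under 0.05 and 1 at an unadjusted one, Hotair (0.26 ± 0.11, adjusted p = 0.129).

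Cells that express Hox genes were gauged by marker genes. Over all genes tested 21.8% were called, 10.7% higher and 11.1% lower, and each count of markers stands against those shares. In RNA of a bulk tissue, more cells of a type and more RNA per cell cannot be told apart. Principal and intercalated cells both belong to the collecting duct, which grows from the ureteric bud, and their calls went in opposite directions. Among 8 intercalated cell markers 0 rose and 4 fell. Their median log2 difference was -0.40, against 0.41 for the principal cell markers, so the collecting duct markers did not rise as a whole. Of 8 principal cell markers, the collecting duct cells that descend from the ureteric bud, 3 rose and 0 fell (37.5% called, 2 of the 3 held with the sex term), and their summed log2 level was 12.39 to 12.65 in the Cre-negative and 12.68 to 13.09 in the Cre-positive arrays. Aqp2, the vasopressin-regulated water channel, was at 9.50, 9.68 and 9.50 against 10.99, 10.43 and 9.99. It rose by 0.91 ± 0.23 (limma adjusted p = 0.0239, and 0.137 with the sex term), whereas Aqp4 and Avpr2 of the same list had differences of -0.50 and -0.25. Among the Cre-positive arrays Aqp2, Hoxb3, Hoxb4, Hoxb5 and Hoxb6 were each highest in replicate 1 and lowest in replicate 3. That order is not particular to Hoxb genes or principal cells. It also held for Hoxa2, Hoxc6 and Hoxd3, which did not pass, and for Egf and Wt1, which fell. Hoxb7, Hoxb8 and Hoxb9 were highest in replicate 1 but lowest in replicate 2, and Hoxb2 was highest in replicate 3.

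Of 6 urothelium markers 5 rose (83.3% called, 4 of the 5 held with the sex term), with a summed level of 10.01 to 10.23 against 10.90 to 11.12. Upk1b, a plaque protein of the urothelial surface, was at 7.69, 7.67 and 7.72 against 9.23, 9.15 and 8.78, with replicate 3 lowest. Of the other urothelium markers that rose, Upk1a, Upk2 and Upk3a were also lowest in replicate 3, whereas Psca was highest there. Of 10 stroma and fibroblast markers 5 rose (1 of the 5 held with the sex term), with a summed level of 12.35 to 12.44 against 12.83 to 13.71. Dcn, a matrix proteoglycan of fibroblasts, was at 11.00, 10.94 and 10.86 against 11.53, 11.67 and 12.43, highest in replicate 3, as Hoxd10 and Hoxd11 were. Of the other stroma markers that rose, Pdgfra and Col1a2 were highest in replicate 3, and Col1a1 and Col3a1 in replicate 2. A highest value in replicate 3 is not particular to stroma or to these 2 Hoxd genes. It was also seen for Hoxa6, Hoxc8 and Hoxc11, and for Gatm, Miox and Podxl, tubule and podocyte markers that fell. The call of Dcn was lost with the sex term (limma adjusted p = 0.108).

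Of 5 smooth muscle markers 3 rose, all of which were lost with the sex term, and of 7 myeloid markers 6 rose, of which 5 held. Of 10 proximal tubule markers 9 fell and all 9 held. Of 6 podocyte markers 5 fell and 4 held, and of 7 endothelial markers 5 fell and 2 held. Of 8 thick ascending limb markers 4 fell and 1 rose, and 3 of these held. Of 8 intercalated cell markers 4 fell and 1 held. Of 6 adipose markers 1 rose and 2 fell, and of 8 adrenal, 9 skeletal muscle and 4 nerve markers 0 passed limma's test, adjusted or not. The part of these cell types in the Hox differences was not tested.

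**Figure D3:**
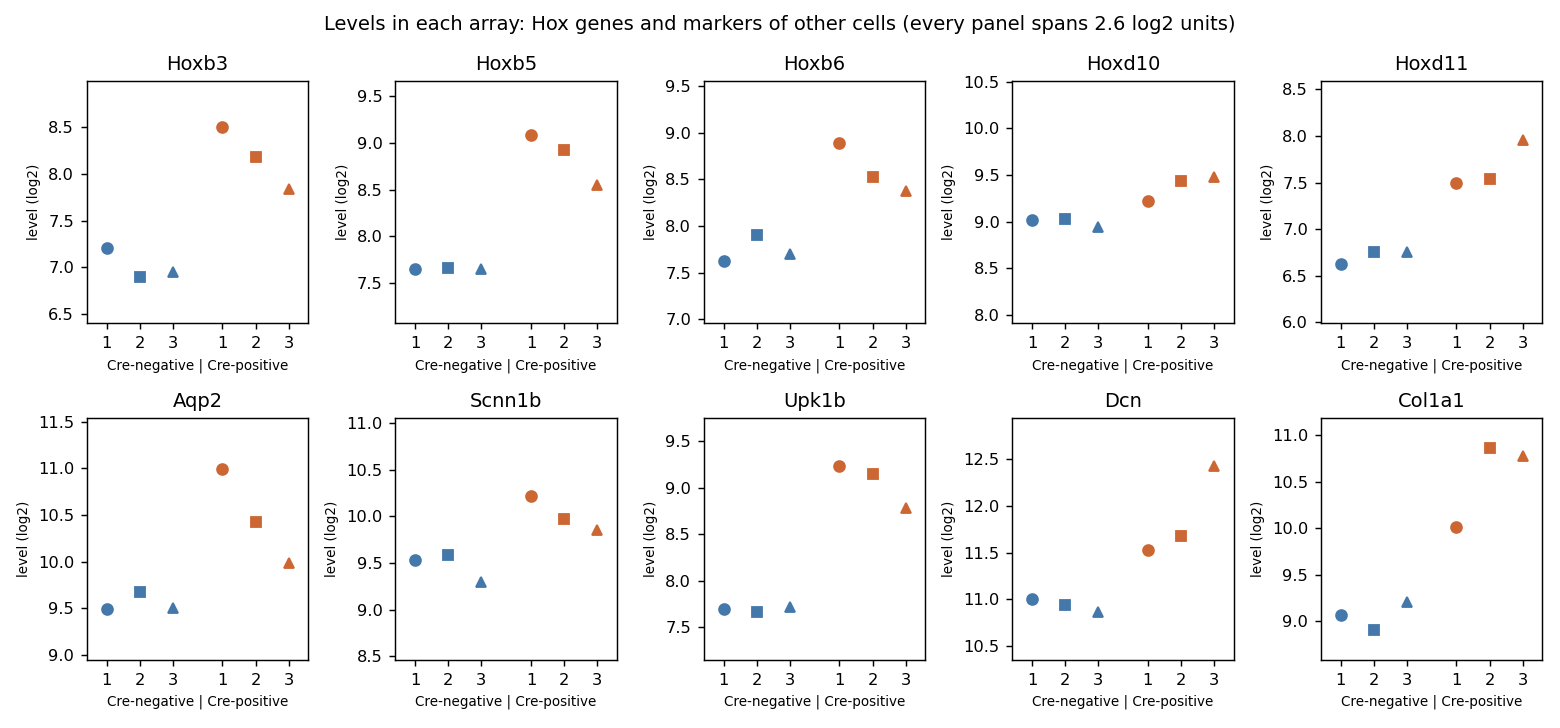
Log2 RMA level of 5 Hox genes (top row) and 5 markers of principal cells (Aqp2, Scnn1b), urothelium (Upk1b) and stroma (Dcn, Col1a1) in each array, with replicates 1, 2 and 3 of the Cre-negative (blue) and Cre-positive (orange) groups along the horizontal axis. Every panel spans the same number of log2 units, and all 10 genes were higher in each Cre-positive than in each Cre-negative array. Only genes that rose are shown. Aqp4, Avpr2, Foxd1 and Upk3b of the same marker lists did not pass.

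Genes that work with Hox proteins or upstream of them were read from lists, each to be set against the 21.8% of all genes called. Of 10 TALE cofactor genes 3 rose and 0 fell (30.0% called). Tgif1, a repressor of the family that competes with Meis proteins for DNA, was at 7.05, 6.96 and 7.06 against 8.01, 7.90 and 8.03, and rose by 0.95 ± 0.08 (limma adjusted p = 0.000311). Meis3 rose by 0.49 ± 0.09 and Pknox2 by 0.52 ± 0.15 (limma adjusted p = 0.00577 and 0.0413), and both were lost with the sex term (0.0992 and 0.129), where Tgif1 held. Meis1 and Meis2, the partners of many Hox proteins, had differences of 0.20 ± 0.11 and -0.20 ± 0.10, neither past the threshold.

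Of 9 partners and targets of the mesenchymal Hox genes 1 rose and 1 fell (22.2% called). Pax2 was at 7.78, 8.00 and 7.70 against 8.38, 8.29 and 8.26, and rose by 0.48 ± 0.10 (limma adjusted p = 0.0127, and 0.0413 with the sex term). Wt1, a podocyte gene in the grown kidney, fell by 0.87 ± 0.15 (limma adjusted p = 0.00547, and 0.0897 with the sex term), beside the podocyte markers. Itga8 and Eya1 had differences of -0.81 ± 0.26 and -0.24 ± 0.09 (limma adjusted p = 0.0627 and 0.106). The Hox targets Six2 and Gdnf lay under the receptor percentile, at 4.11 to 4.55 and 3.93 to 4.32, with differences of -0.05 and 0.23.

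Of 11 ureteric bud genes 2 rose and 2 fell (36.4% called). Pax8, a transcription factor of kidney epithelium, rose by 0.86 ± 0.10 and Gata3, of the collecting duct, by 0.41 ± 0.12 (limma adjusted p = 0.00109 and 0.0420). Lhx1, a LIM homeodomain factor of early nephrons and bud, fell by 1.03 ± 0.08 and Gfra1, the co-receptor for Gdnf, by 0.54 ± 0.13 (limma adjusted p = 0.000220 and 0.0244). Pax8 and Lhx1 held with the sex term, and Gata3 and Gfra1 did not (0.156 and 0.263 by limma). Emx2 and Wnt11 had differences of 0.20 and -0.14.

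Polycomb proteins keep Hox genes silent and Trithorax proteins keep them active. Of 17 Polycomb genes 2 rose and 0 fell (11.8% called), Pcgf2 by 0.79 ± 0.12 and Phc2 by 0.42 ± 0.08 (limma adjusted p = 0.00273 and 0.00921), and with the sex term Pcgf2 held and Phc2 did not (0.0866). Of 10 genes listed under Trithorax, where Kdm6b belongs only in a broad sense, 40.0% were called. The methyltransferases Kmt2a and Kmt2b and the demethylase Kdm6b rose, by 0.43, 0.40 and 0.38, and Dpy30 fell by 0.33 on the log2 scale. With the sex term all 4 of these Trithorax calls were lost (limma adjusted p = 0.124 to 0.236).

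Retinoic acid is 1 of the signals that set the front limit of Hox expression in the embryo, and its part in the differences here was not tested. Of its 17 genes 2 rose and 4 fell (35.3% called). The synthesis enzyme Aldh1a1 was at 6.89, 7.32 and 6.93 against 9.52, 8.38 and 8.41 and rose by 1.72 ± 0.30, or 3.30-fold. Aldh1a2, another such enzyme, was at 6.12, 6.79 and 5.90 against 6.95, 8.09 and 8.81, and rose by 1.67 ± 0.44, or 3.19-fold (limma adjusted p = 0.00525 for Aldh1a1 and 0.0301 for Aldh1a2). Aldh1a3 fell by 0.63 on the log2 scale, the receptor Rxrg by 0.55, the degrading enzyme Cyp26b1 by 0.46 and the reductase Dhrs3 by 0.42. Of these 6 calls only Aldh1a1 held with the sex term (limma adjusted p = 0.0484), the others being at 0.0987 to 0.387. Of the 3 Cdx genes, activators of Hox genes in the embryo, 0 passed limma's test, adjusted or not.

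Of 14 genes that flank the clusters 1 rose and 3 fell (28.6% called), of which Mtx2 was lost with the sex term (limma adjusted p = 0.0586). Snx10, on the chromosome of Hoxa, rose by 0.90 ± 0.10, and Hibadh, on the other side of that cluster, fell by 0.89 ± 0.10 (limma adjusted p = 0.000888 and 0.000691). Mtx2 and Atp5g3, of the Hoxd region, fell by 0.54 and 0.55 on the log2 scale. Skap1, Ttll6 and Calcoco2, of the Hoxb region, had differences of -0.01, 0.05 and -0.23 and did not pass. Calcoco2 at 3.42 to 3.85 and Ttll6 at 4.81 to 5.13 did not exceed the receptor percentile on any array. Skap1 at 5.44 to 5.74 lay just above it, so these rows are too dim to show that the region stayed level.

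The Hox counts depended on sex and on the arrays. With sex as a second term, which leaves Cre-negative replicate 3 as the only control for the difference, 5 of the 9 genes held, namely Hoxb3, Hoxb5, Hoxb9, Hoxc11 and Hoxd11, where 4.10% of all genes were called higher. Hoxb6 and Hoxb7 narrowly missed with sizes of 0.90 and 0.78 (limma adjusted p = 0.0505 and 0.0619), and Hoxb4 and Hoxd10 were at 0.140 and 0.119. In the 4 male arrays alone the differences are the same, the lone control is assumed to vary like the other group, and 2 genes passed, Hoxb5 and Hoxb9 (limma adjusted p = 0.0415 and 0.0303), where 2.30% of all genes were called higher. Without the array with adrenal and the array with muscle transcripts 6 held, namely Hoxb3, Hoxb5, Hoxb6, Hoxb7, Hoxb9 and Hoxd11, where 3.96% of all genes were called higher. The same 6 held in every fit that left out 1 array, where 6.68% to 10.2% of all genes were called higher.

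**Figure D4:**
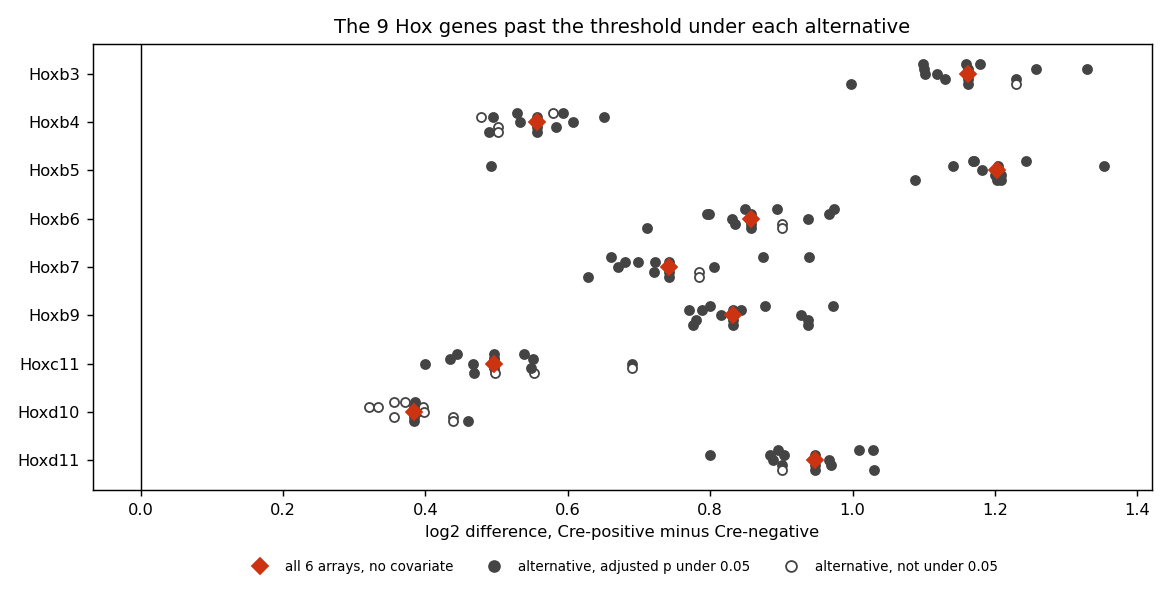
Log2 difference of each of the 9 genes past the threshold (horizontal axis) in the analysis of all 6 arrays (red diamond) and under each alternative other than another threshold (circles, filled where the adjusted p was under 0.05). All differences lie above 0, and the isolated low point of Hoxb5 at 0.49 is the mean of its rows.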

How the data were processed

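Total RNA of 6 mouse kidney samples was hybridised to 1 Affymetrix array each, by the manufacturer's WT Plus protocol, per the labels' protocols. The authors deposited log2 values: the submitters' processing notes list RMA and Partek with no version, RMA gives log2 by convention, and the range of 1.89 to 13.6 fits that scale. Which genome build and annotation define the rows is not given in the sources used here. Array medians were 5.55 to 5.64, the number of arrays limits the precision, and scanner files and scan dates were not used here.

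GEO's platform annotation gave 23521 of 41345 rows 1 gene symbol, 1814 several and 16010 none. 23328 rows matched the RefSeq gene table (GRCm38.p6) by Entrez ID, and 0 symbols changed. The row of highest mean stood for a gene with several rows (1082 of 22180 genes), with no filter on low values. There were 0 columns of other samples. The two-sided test was limma 3.58.1 under R 4.3.3, from lmFit and eBayes without covariates. Its p-values were adjusted by Benjamini and Hochberg's method over all 22180 genes, with calls at under 0.05, and it was checked on simulated data. Errors beside a difference are limma's standard errors.

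The 6 array values are given for each Hox gene that passed, each whose groups do not overlap and the row of highest mean in each cluster. In other lists up to 6 members past the threshold and up to 2 others of smallest p are named, with Gdnf, Six2, Aqp4, Avpr2, Scnn1b, Skap1, Ttll6 and Calcoco2 added after their values were seen. Members and lists were chosen with earlier results of these data known. Alternatives changed the scaling, the filter, the variance model, the rows per gene, the threshold, the covariates and the arrays used. Promoters were found for 20 of the 36 genes in RefSeq's table, and motifs were searched as exact strings.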

Additional observations from a re-analysis of the deposited data

How the results depend on the processing

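The 9 Hox genes called higher became 5 with sex as a second term and 2 in the male arrays only. Under the other 17 alternatives the count stayed between 6 and 12, and under all 19 the count called lower stayed at 0 by limma, with 1 at an unadjusted p under 0.05 in the main comparison (Hoxa7). Leaving out each array in turn gave 7 to 10 calls, and the median difference of the 36 genes ranged from 0.10 to 0.26 over the alternatives. The lowest, 0.10 against 0.16 in the main comparison, came with arrays centred on their medians, which lowered the difference of every Hox gene. No called gene changed sign. Hoxd10 lost its call under 12 of 19 alternatives, among them arrays centred on their medians (adjusted p = 0.0573) and every row of the table (0.0533). Without Cre-positive replicate 3, Hoxc5 and Hoxd3 joined the calls, and without Cre-positive replicate 2, Hoxb2 did (adjusted p = 0.0199). The sex term and the male arrays give the same differences against Cre-negative replicate 3 alone, so they are not separate checks, and effects of sex and of that array cannot be told apart. Hoxb8 and Hoxd9 moved to 0.89 and 0.54 with the sex term, as in the male arrays, since Cre-negative replicate 3, the lowest control of both genes, is then the only control. No pairing by replicate number was detected: deviations of same-numbered arrays correlated at 0.03, -0.04 and -0.01. Such correlations cannot show that the samples were unpaired, because signals of single arrays also enter them. With the replicate number as a block, 8 Hox genes were called (Hoxd10 lost, adjusted p = 0.0593), and 3977 of all genes against 4844 without it. Dim rows limit the lower end: Hoxc11 lay under the 95th percentile of receptor genes on all 6 arrays. With genes below the median level left out, 25 of the 36 Hox genes remained in the test and 8 were called.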
